A study of Mus musculus with 2 samples.

Results

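The set described here holds 44 genes of mitosis, the spindle and cytokinesis, chosen by name from the machinery of cell division and found by symbol among the 43346 Ensembl genes of the gene tables. The rule names genes and uses no measured level, and all 44 are kept whether or not they were expressed. They fall by role into mitotic entry and chromosome genes (14), checkpoint and kinetochore genes (13), spindle motors (7), the chromosomal passenger complex (4) and cytokinesis genes (6).

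Cells enter mitosis when cyclin-dependent kinase 1, bound to cyclins A and B, is released from inhibition, and they leave it when the anaphase-promoting complex has the cyclins and the separase inhibitor destroyed. The spindle checkpoint holds that step until kinetochores are attached, and the passenger complex, centralspindlin and the small GTPase RhoA then place and close the cleavage furrow. Megakaryocytes, the bone marrow and fetal liver cells that shed platelets, become polyploid by endomitosis: they begin mitosis and anaphase but do not complete cytokinesis. Loss of the RhoA activators Arhgef2 (GEF-H1) and Ect2 at the furrow is a known feature of that process.

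Polyadenylated RNA was sequenced from primary mouse megakaryocytes taken at embryonic day 14.5, with male and female embryos pooled, in 2 libraries that form 1 group. No strain, genotype change, treatment or second group is named in the labels. The labels call the libraries biological replicates 1 and 2, each with technical replicate number 1, while both cite the same biosample and donor. Whether the spread between replicate 1 and replicate 2 is biological or technical is therefore not clear. With 1 library on each side no test between them exists; ratios of replicate 2 to replicate 1 compare these libraries, not conditions.

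The libraries differed in depth by 18.5 times, with 42099216 expected counts in replicate 1 and 2275922 in replicate 2. Up to 3 counts remain possible where 0 were seen, which is 0.0713 CPM (counts scaled to a common library total, here before TMM scaling) for replicate 1 and 1.32 CPM for replicate 2. The defining megakaryocyte markers were present, with 12 of 12 detected and a summed level of 17852 and 26211 TPM (a level scaled to transcript length and to depth) in replicates 1 and 2. Markers of other cells were lower and moved between the libraries. Macrophage markers (7 of 12 detected, Timd4 and Cd163 at 0) summed to 875 and 229 TPM, and granulocyte markers (9 of 12 detected, 7 at 0 in replicate 2) to 864 and 150 TPM. Erythroid markers (5 detected of the 9 found in the tables, Rhag at 0) summed to 157 and 193 TPM, stem cell markers (4 of 8, Mecom at 0) to 179 and 284 TPM, and mast cell and basophil markers (5 of 8, Fcer1a at 0) to 156 and 148 TPM. Each of these 3 sums is mostly 1 gene: Epor (143 and 174 TPM), Meis1 (117 and 270 TPM) and Gata2 (105 and 143 TPM). The next genes of the stem cell and mast cell lists were lower in replicate 2, with Slamf1 at 37.0 and 6.56 TPM, Cd34 at 21.7 and 6.07 TPM and Prss34 at 33.0 and 1.51 TPM. Hepatocyte markers (2 of 10, with Alb, Apoa2, Ttr and Serpina1a at 0) summed to 56.7 and 10 TPM and endothelial and stromal markers (1 of 10, with Robo4, Col3a1 and Dcn at 0) to 3.37 and 2.03 TPM. The part of these cells in the mitotic levels was not tested, and in bulk RNA fewer dividing cells and less RNA per cell cannot be told apart.

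Most of the division machinery was transcribed, but at very unequal levels. At a mean of at least 1 TPM, 38 of the 44 genes were detected, or 86.4%, beside 22.7% of all genes and 42.5% of protein coding genes. By library, 39 reached 1 TPM in replicate 1, 31 in replicate 2 and 29 in both. Only 9 genes reached 20 TPM in both libraries: Arhgef2, Cenpa, Cdc20, Cdca8, Plk1, Fzr1, Birc5, Ccna2 and Aurkb. Another 4 (Incenp, Bub3, Cdk1 and Pttg1) reached it in replicate 1 alone. The 6 genes under a mean of 1 TPM were Mad2l1, Ttk, Bub1, Kif20b, Cenpe and Anln. No gene of the set was at 0 counts in replicate 1, while 5 were at 0 in replicate 2 (Ccnb1, Mad2l1, Ttk, Nuf2 and Cenpe) and 9 more had 1 to 3 counts there.

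**Figure D1:**
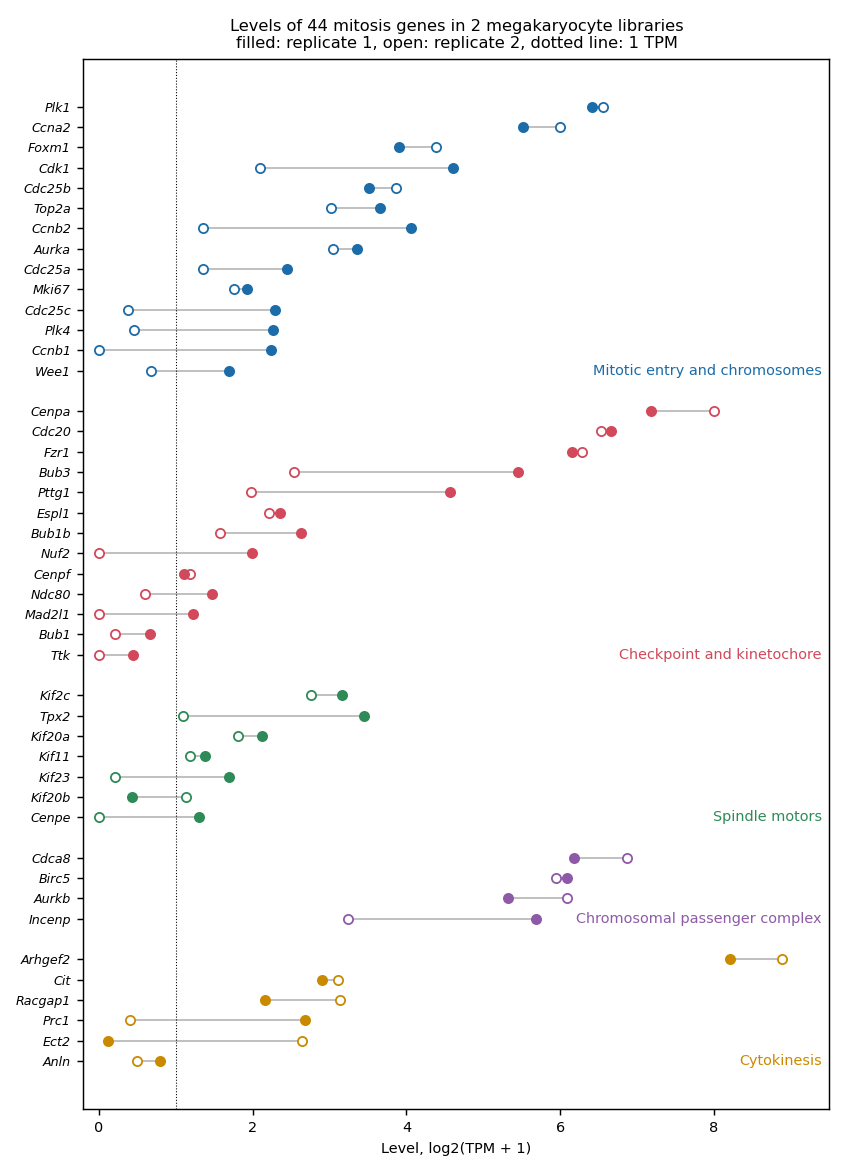
Level of each of the 44 genes in replicate 1 (filled) and replicate 2 (open) as log2(TPM + 1), grouped by role and ordered by mean TPM, with a dotted line at 1 TPM. The passenger complex genes lie to the right of all 7 spindle motors in both libraries, and 5 genes are at 0 in replicate 2.

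The roles differed in level. The median over the passenger complex was 58.8 TPM in the first and 63.9 TPM in the other library, and over the spindle motors 2.23 and 1.19 TPM. Mitotic entry genes had medians of 9.83 and 2.84 TPM, checkpoint and kinetochore genes of 4.11 and 1.99 TPM, and cytokinesis genes of 4.43 and 6.45 TPM. Over all 44 genes the medians were 5.28 and 2.73 TPM. A list of 24 DNA replication genes, of which 23 were detected, had medians of 10.2 and 5.75 TPM, and 8 G1 cyclins and kinases, of which 7 were detected, of 9.70 and 10.8 TPM. All 9858 detected genes had medians of 11.3 and 7.54 TPM. Across the 44 genes the TPM of the libraries ranked alike (Spearman's rho 0.79, Pearson's r 0.87 on log2(TPM + 1)), beside a rho of 0.76 over all detected genes; this is a description across genes, which are not independent replicates. Together the 44 genes took 0.172% of the counts of replicate 1 and 0.144% of those of replicate 2.

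Among mitotic entry genes the kinase Plk1, which drives centrosome maturation and mitotic entry (chr7:122159439-122169873; gene positions are those of GENCODE M21 on GRCm38), was the highest, at 84.2 TPM (6828 counts) in replicate 1 and 92.97 TPM (355 counts) in replicate 2. Cyclin A2, Ccna2, the cyclin of S phase and early mitosis, stood at 44.6 and 63.0 TPM (1740 and 112 counts). Foxm1, the transcription factor that switches on late cell cycle genes, stood at 14.01 and 19.9 TPM (1619 and 115 counts). By TPM and by scaled counts replicate 2 was the higher for each of these 3 genes, by less than 2-fold. For Plk1 the direction depended on the estimate, as its posterior mean TPM was 82.6 in replicate 1 and 66.0 in replicate 2.

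The kinase at the centre of mitotic entry and its B-type cyclins did not lie within 2-fold between the libraries. Cdk1 stood at 23.4 TPM (503 counts) in replicate 1 and 3.29 TPM (2 counts) in replicate 2, a scaled count ratio of 0.0997 (exact 95% interval 0.012 to 0.362). Ccnb2, a B-type cyclin, stood at 15.7 and 1.55 TPM (865 and 4 counts), a ratio of 0.116 (0.032 to 0.298). Ccnb1, the other B-type cyclin measured, stood at 3.72 TPM (206 counts) and 0, at least 2.74-fold lower in replicate 2 by the floor of 3 counts, with an upper limit of 0.453 for the ratio by the exact interval. Within replicate 1 the level of Ccnb1 was 0.237 of that of Ccnb2 (0.203 to 0.276). Both cyclins and their kinase were thus lower in replicate 2, where each rested on fewer than 5 counts.

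The phosphatases and kinases that set Cdk1 activity were spread over the same range. Cdc25b, a phosphatase that activates Cdk1, stood at 10.45 and 13.5 TPM (841 and 55 counts), and Cdc25a, which acts earlier in the cycle as well, at 4.44 and 1.55 TPM (607 and 10 counts). The level of Cdc25b was 2.35 times that of Cdc25a in replicate 1 (2.12 to 2.62) and 8.72 times in replicate 2 (4.40 to 19.2), and these intervals do not overlap. Cdc25c stood at 3.91 and 0.30 TPM (277 counts and 1 count). Wee1, the inhibitory kinase and the lowest gene of this role by mean TPM, stood at 2.23 and 0.60 TPM (158 and 2 counts). Of the 3 phosphatases, Cdc25b alone was at 10 TPM or more, in both libraries, when all its transcripts were counted. By coding transcripts alone Cdc25b stood at 6.82 and 9.99 TPM, or 1.54 and 6.45 times Cdc25a.

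The chromosome and centrosome genes of this role were low to moderate. Top2a, the topoisomerase that untangles sister chromatids, stood at 11.7 TPM (2205 counts) and 7.13 TPM (15 counts), a count ratio of 0.171 (0.095 to 0.282). Aurka, the centrosomal Aurora kinase, stood at 9.20 and 7.22 TPM (636 and 23 counts). Mki67, the Ki-67 coat protein of mitotic chromosomes, stood at 2.80 and 2.39 TPM (1090 and 44 counts). Plk4, the kinase of centriole duplication, stood at 3.82 and 0.37 TPM (213 counts and 1 count). The proliferation marker Ki-67 was therefore far lower per length than Plk1 in both libraries. It was also lower than Ccna2, whose coding transcript stood at 5.09 and 7.43 TPM.

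Checkpoint and kinetochore genes split into a high trio and a long low tail. Cenpa, the histone variant that marks centromeres (chr5:30666777-30674830), stood at 144 TPM (4851 counts) and 254 TPM (338 counts). Cdc20, the activator of the anaphase-promoting complex in mitosis (chr4:118432901-118437352), stood at 100.5 and 91.6 TPM (6537 and 280 counts). Fzr1 (Cdh1), which activates the same complex at mitotic exit and in G1, stood at 70.0 and 77.0 TPM (7601 and 354 counts). The 2 activators lay within 2-fold of each other: Cdc20 was 1.44 times Fzr1 in replicate 1 (1.39 to 1.48) and 1.19 times in replicate 2 (1.01 to 1.40). By coding transcripts alone Cdc20 was 1.69 and 1.98 times Fzr1.

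The checkpoint proteins that restrain Cdc20 were far lower. Bub1b (BubR1) stood at 5.17 and 1.99 TPM (716 and 13 counts) and the kinase Bub1, its relative at the kinetochore, at 0.58 and 0.16 TPM (74 counts and 1 count). Bub1b was 8.91 times Bub1 in replicate 1 (7.01 to 11.5) and 12.4 times in replicate 2, where the interval runs from 1.87 to 529. Mad2l1 (MAD2), the inhibitor of Cdc20, stood at 1.33 TPM (73 counts) and 0. Ttk (MPS1), the kinase that starts checkpoint signalling and the lowest of all 44 genes by mean TPM though not in replicate 1 alone, stood at 0.36 TPM (35 counts) and 0. At their replicate 1 levels 2.91 counts of Mad2l1 and 1.40 of Ttk would have been seen in replicate 2, under the floor of 3, so their absence there was not detectable as a difference. Cdc20 thus stood above each of these 4 restraining proteins in both libraries.

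Bub3, which carries BubR1 and BUB1 to kinetochores (chr7:131560222-131571895), was the exception in level and in spread. It stood at 42.8 TPM (3223 counts) in replicate 1 and 4.80 TPM (17 counts) in replicate 2, a ratio of 0.132 (0.077 to 0.212). Securin, Pttg1, the inhibitor of separase, stood at 22.7 and 2.94 TPM (401 and 3 counts). Separase itself, Espl1, stood at 4.11 and 3.65 TPM (1047 and 44 counts). Securin was 5.52 times separase in replicate 1 (4.90 to 6.19) and 0.805 times in replicate 2 (0.160 to 2.51). In replicate 2 the interval includes 1 and rests on 3 counts of Pttg1. By the authors' posterior mean TPM securin was above separase in both libraries, at 5.60 and 3.72 times, so no difference in order is shown.

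Outer kinetochore genes were near the detection level. Ndc80 (HEC1), which binds microtubules, stood at 1.78 and 0.52 TPM (144 and 2 counts), and its partner Nuf2 at 2.99 TPM (69 counts) and 0. Ndc80 was 0.595 of Nuf2 in replicate 1 (0.444 to 0.805). At the replicate 1 level 2.75 counts of Nuf2 would have been seen in replicate 2, so its absence there was not detectable as a difference. Cenpf, a large kinetochore protein, stood at 1.16 and 1.27 TPM (488 and 26 counts), close together in the libraries.

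Spindle motors and their partner Tpx2 were the lowest role. Kif2c (MCAK), a microtubule depolymerase, stood at 7.97 and 5.79 TPM (348 and 6 counts). Tpx2, the spindle assembly factor that activates Aurora A, stood at 9.94 and 1.13 TPM (1388 and 7 counts), a ratio of 0.126 (0.051 to 0.261). Kif20a (MKLP2), which moves the passenger complex to the midzone, stood at 3.35 and 2.52 TPM (451 and 16 counts). Kif11 (Eg5), the motor that separates spindle poles, stood at 1.60 and 1.27 TPM (293 and 11 counts). Tpx2 was thus far lower in replicate 2, while Kif20a and Kif11 had similar levels in the libraries.

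The remaining motors differed in opposite directions. Cenpe, the kinetochore motor of chromosome congression and the lowest of this role by mean TPM though not in replicate 1 alone, stood at 1.47 TPM (444 counts) and 0. At the replicate 1 level 17.7 counts would have been seen, so Cenpe was at least 5.90-fold lower in replicate 2 by the floor of 3 counts, with an upper limit of 0.209 for the ratio by the exact interval. Kif23 (MKLP1), the motor of centralspindlin, stood at 2.23 TPM (287 counts) and 0.16 TPM (1 count), a ratio of 0.087 (0.002 to 0.491). Kif20b stood at 0.35 TPM (74 counts) and 1.19 TPM (12 counts), a ratio of 4.06 (2.01 to 7.53). By scaled counts Kif20b was thus one of only 2 genes of the set higher in replicate 2 by more than 2-fold. Its mean of 3.82 CPM lies under the 5 CPM used for calls below.

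The chromosomal passenger complex, in which Aurkb is the kinase, Incenp the scaffold, and Birc5 (survivin) and Cdca8 (borealin) the targeting subunits, was the role with the highest median. Cdca8 stood at 71.7 and 116 TPM (2628 and 141 counts), Birc5 at 67.2 and 60.6 TPM (2170 and 90 counts) and Aurkb at 39.0 and 67.2 TPM (1672 and 98 counts). Incenp (chr19:9872296-9899551) stood at 50.4 TPM (6091 counts) in replicate 1 and 8.42 TPM (48 counts) in replicate 2, a ratio of 0.198 (0.145 to 0.262). The count ratios of the other subunits were 1.34 (1.13 to 1.59) for Cdca8, 1.04 (0.832 to 1.28) for Birc5 and 1.47 (1.19 to 1.80) for Aurkb. By gene counts the interval of the scaffold lies below those of its 3 partners. In TPM of coding transcripts alone, Cdca8 stood at 31.1 and 18.6 TPM and Aurkb at 17.8 and 11.9 TPM, both lower in replicate 2. Incenp (50.4 and 8.42 TPM) and Birc5 (67.2 and 60.6 TPM) lie wholly on coding transcripts. For these genes only the scale differs, and Birc5 was lower in replicate 2 by TPM but not by scaled counts.

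The ratios of the subunits to Incenp moved with it, by an amount that depends on the transcripts counted. Aurkb was 0.773 of Incenp in replicate 1 (0.732 to 0.817) and 7.98 times Incenp in replicate 2 (5.60 to 11.5). Birc5 was 1.33 times Incenp (1.27 to 1.40) and then 7.20 times (5.02 to 10.4). Cdca8 was 1.42 times Incenp (1.36 to 1.49) and then 13.8 times (9.85 to 19.5). By coding transcripts alone Aurkb was 0.353 of Incenp in replicate 1 and 1.41 times in replicate 2, and Cdca8 was 0.616 of Incenp and then 2.21 times, while the ratios of Birc5 did not change. The ratios were thus higher in replicate 2 by either count, and for Aurkb and Cdca8 far smaller by coding transcripts. In replicate 1 the 4 subunits lay within 39.0 to 71.7 TPM, and in replicate 2 Incenp lay under the other subunits.

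**Figure D2:**
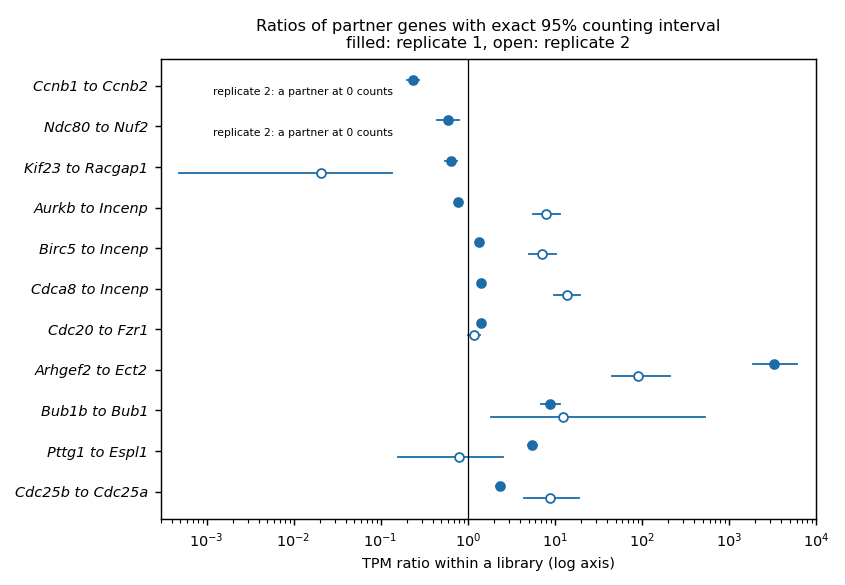
TPM ratio of 11 pairs of related genes, called partners here, within each library, on a log axis, with exact 95% counting intervals. Filled points are replicate 1 and open points replicate 2. Pairs such as Cdc20 to Fzr1, Cdc25b to Cdc25a and Arhgef2 to Ect2 share a function and need not form a complex. The ratios to Incenp move from near 1 to between 7.20 and 13.8 (for Aurkb and Cdca8 to 1.41 and 2.21 by coding transcripts, which are not plotted). The ratio of Cdc20 to Fzr1 lies between 1 and 1.5 in both libraries (1.69 and 1.98 by coding transcripts, not plotted).

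Cytokinesis genes ranged from the highest level of the set to near the detection level. Arhgef2 (GEF-H1), a microtubule-bound RhoA activator (chr3:88605966-88648052), was the highest of all 44 genes in both libraries, at 294 TPM (11082 counts) and 472 TPM (876 counts). Its count ratio was 1.98 (1.85 to 2.12), just under 2-fold. Ect2, the RhoA activator that centralspindlin recruits to the midzone (chr3:27097222-27153878), stood at 0.09 TPM from 13 counts in replicate 1 and at 5.26 TPM from 8 counts in replicate 2. Its ratio was 15.4 (5.54 to 40.1), the largest of the set, and its replicate 2 level rested on 8 counts. Arhgef2 stood 3265 times above Ect2 in replicate 1 (1908 to 6133) and 89.8 times in replicate 2 (45.4 to 209). By posterior mean TPM it stood 643 and 37.4 times above, so the size of the ratio to a gene with so few counts depends on the estimate, but its direction did not.

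The other cytokinesis genes were modest. Citron kinase, Cit, a kinase of the midbody, stood at 6.49 and 7.63 TPM (1931 and 125 counts). Racgap1, the GTPase-activating subunit of centralspindlin, stood at 3.46 and 7.78 TPM (288 and 15 counts). Its motor partner Kif23 was 0.645 of Racgap1 in replicate 1 (0.545 to 0.762) and 0.021 in replicate 2 (0.00049 to 0.134), the latter resting on 1 count of Kif23. Prc1, which bundles midzone microtubules, stood at 5.39 and 0.32 TPM (250 counts and 1 count). Anln (anillin), the scaffold of the contractile ring and the lowest of this role by mean TPM, stood at 0.73 and 0.41 TPM (151 and 4 counts). Apart from Arhgef2, no gene of this role reached 10 TPM in either library by the maximum likelihood TPM; by the posterior mean Cit stood at 15.8 TPM and Racgap1 at 14.3 TPM in replicate 2.

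In the order of mean TPM, neighbours were often closer than their spread. Arhgef2 had a mean of 383 ± 126 (SD, n = 2) and Cenpa 199 ± 77.8. Cdc20 followed at 96.1 ± 6.32, Cdca8 at 93.7 ± 31.2 and Plk1 at 88.6 ± 6.20, and these 3 did not differ beyond their spread. Fzr1 (73.5 ± 4.92) and Birc5 (63.9 ± 4.70), and then Ccna2 (53.8 ± 13.0) and Aurkb (53.1 ± 19.98), lay next. Among 21474 protein coding genes Arhgef2 ranked 467th in replicate 1 and 329th in replicate 2, and Cdc20 ranked 1226th and 1255th.

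For several of the highest genes the TPM was carried by short transcripts that the annotation does not type as protein coding. Of the TPM of Arhgef2, 83.5% in replicate 1 and 83.2% in replicate 2 lay on Arhgef2-213, a processed transcript of 532 bases, while that transcript took 34.5% and 32.1% of the gene's counts. All 532 of its bases lie within exons of coding transcripts of the gene. The coding transcripts of Arhgef2 summed to 43.95 and 79.2 TPM. By coding transcripts alone Arhgef2, at a mean of 61.6 TPM, came after Cdc20 (96.1 TPM), Plk1 (88.6 TPM), Cenpa (79.0 TPM) and Birc5 (63.9 TPM). The place of Cenpa in this order also rests on a short transcript, though one typed as coding. Cenpa-206, of 346 bases, stood at 34.98 and 91.98 TPM from 289.53 and 33.94 counts. Cenpa-205, of 1354 bases, stood at 27.78 and 3.29 TPM, below the coding transcripts of Arhgef2 in both libraries.

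The same held for cyclin A2 and Cdk1. Ccna2-202, a transcript of 856 bases that keeps an intron, took 84.7% and 88.2% of the TPM of Ccna2 and 61.4% and 65.3% of its counts, and the coding transcript stood at 5.09 and 7.43 TPM. Of its bases, 285 lie outside coding exons. Cdk1-204, of 475 bases and also of the retained intron type, took 82.3% of the TPM of Cdk1 in replicate 1 and all of it in replicate 2, where it held the 2 counts. The coding transcripts of Cdk1 stood at 4.13 TPM and 0. Counted by coding transcripts, Cdk1 and Ccna2 were thus far below Plk1 and Cdc20, whose TPM lay wholly on coding transcripts in both libraries.

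In the passenger complex Cdca8-203, a processed transcript of 645 bases, took 56.7% and 83.9% of the TPM of Cdca8, and Aurkb-204, one of 615 bases, took 50.2% and 43.7% of that of Aurkb. The TPM of Birc5 and Incenp lay on coding transcripts. Cenpa-202, annotated as subject to nonsense-mediated decay, took 54.3% and 62.6% of the TPM of Cenpa. Kif2c-203, a retained intron transcript of 629 bases, took 72.0% and 96.5% of the TPM of Kif2c, and the coding transcript of that motor stood at 2.23 and 0.20 TPM. Ect2 had no TPM on a coding transcript in either library: its 13 counts in replicate 1 lay on Ect2-212, a transcript of the decay type, and 6 of its 8 counts in replicate 2 lay on Ect2-210, a retained intron transcript with 533 of its 797 bases outside coding exons.

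The share of genes of the set with this pattern was close to that over all genes. Less than 50% of the TPM lay on coding transcripts for 8 of 38 genes of the set in replicate 1, or 21.1%, beside 19.3% of all genes at 1 TPM, and for 9 of 31 in replicate 2, or 29.0%, beside 22.9%. The transcripts of Plk4 were not matched to the annotation used and are left out of these counts. The transcript with the highest TPM was the same in both libraries for 20 of 25 genes of the set, or 80.0%, beside 61.1% of all genes so compared. By the posterior mean it was the same for 14 of 25, beside 54.4%. By the maximum likelihood TPM it differed for Aurka, Ect2, Prc1, Racgap1 and Top2a. For Top2a the coding transcript gave 93.6% of the TPM in replicate 1, and Top2a-203, a processed transcript of 796 bases, 83.7% in replicate 2, from about 7 of the 15 counts.

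**Figure D3:**
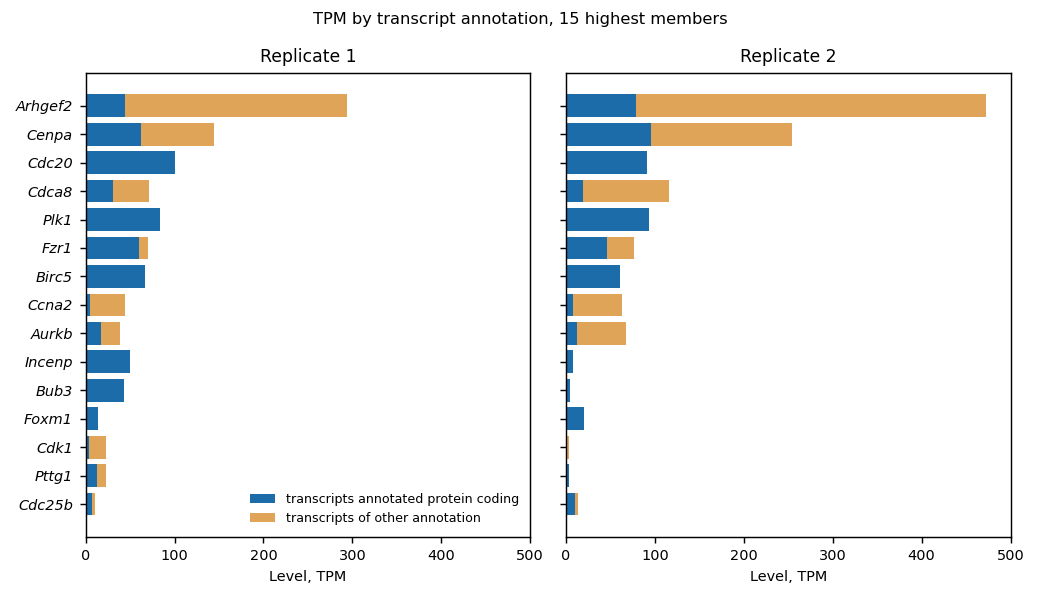
TPM of the 15 genes of highest mean level in replicate 1 (left) and replicate 2 (right), split into transcripts annotated protein coding (blue) and transcripts of other annotation (orange). Most of the bar of Arhgef2 is orange in both libraries, and the bars of Cdc20, Plk1 and Birc5 are blue.

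Among ratios past 2-fold, genes of the set were more often lower than higher in replicate 2. So were all genes at a mean of at least 5 CPM, of which 27.0% were lower and 19.4% higher. The median ratio of the set at that level lay near that of all genes. Over all 44, with 0 counts set at the floor, 19 were lower by more than 2-fold in scaled counts and 2, Ect2 and Kif20b, were higher. Over the 16120 genes with any count, 20.7% were lower and 22.3% higher by that rule. That background is unlike the set: every gene of the set had at least 13 counts in replicate 1, which the 16120 genes need not have. A gene with few counts in replicate 1 cannot be called lower, as 0 counts in replicate 2 are set at the floor. The share of lower genes there is thus no match for the set. The exact interval lay wholly past 2-fold lower for 9 genes of the set (Cdk1, Ccnb1, Ccnb2, Top2a, Bub3, Tpx2, Kif23, Cenpe and Incenp), beside 9.78% of all genes, and wholly past 2-fold higher for 2, beside 12.2%. By role, 8 of 14 entry genes, 5 of 13 checkpoint genes, 4 of 7 motors, 1 of 4 passenger complex genes and 1 of 6 cytokinesis genes were lower. For these counts by role no matched share of all genes was computed.

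At a mean of at least 5 CPM, where the ratio is better measured, 28 of the 44 remained. Of these 9, or 32.1%, were lower (Cdk1, Ccnb2, Cdc25a, Top2a, Bub1b, Bub3, Tpx2, Kif2c and Incenp), beside 27.0% of 7391 genes. By the same rule 0 were higher, beside 19.4%. The interval lay wholly past 2-fold lower for 6 of the 28, beside 15.9%, and for 0 higher, beside 12.4%. The median log2 ratio of the 28 was 0.07, with 12 of them below 0. Over all 7391 genes it was -0.06, with 3827 below 0. A gene passes this filter more easily through the library in which it is high, so the counts describe these libraries only. With total counts in place of TMM scaling, 36.8% of the 7391 genes were lower and 9.76% higher, and 9 and 0 genes of the set.

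**Figure D4:**
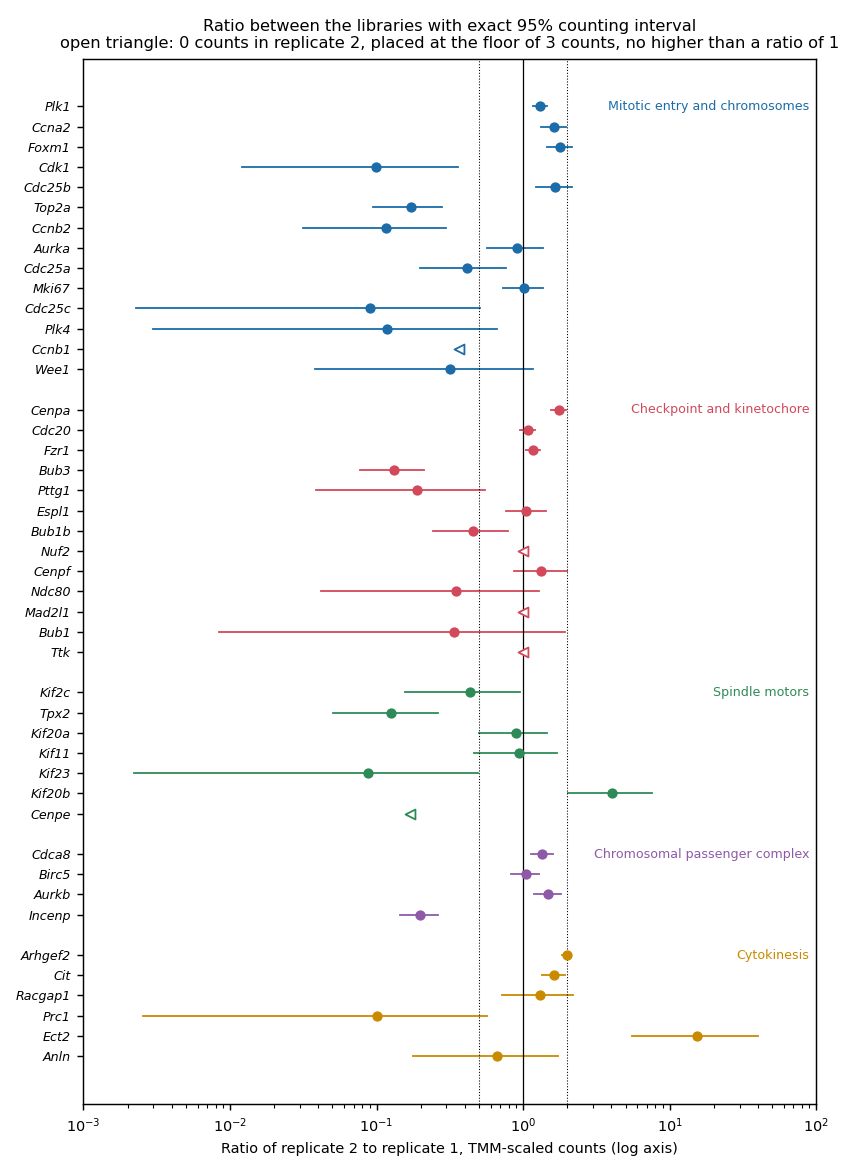
Ratio of replicate 2 to replicate 1 in TMM-scaled counts for the 44 genes, on a log axis, with exact 95% counting intervals and dotted lines at 2-fold. Open triangles mark 0 counts in replicate 2; those of Nuf2, Mad2l1 and Ttk are at 1 because the floor lies at or above their replicate 1 level, and the passenger complex point of Incenp lies apart from its 3 partners.

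Base composition moved with these ratios. GC content of the longest coding transcript had a median of 47.6% over the 44 genes (39.4% to 59.9%), beside 52.6% over the genes at 5 CPM. Of those genes, the lowest GC tertile, under 49.6%, had a median log2 ratio of -0.50, the middle tertile -0.18, and the highest, over 55.1%, 0.36. The set had 27 genes in the lowest tertile, 13 in the middle and 4 in the highest (Plk1, Cdc20, Fzr1 and Espl1), and the 5 genes at 0 in replicate 2 were all in the lowest. At 5 CPM, 5 of 12 genes of the set in the lowest tertile were lower by more than 2-fold, beside 38.3% of all genes there. In the middle tertile 4 of 12 were lower, beside 27.5%, and in the highest 0 of 4, beside 15.1%. With the GC trend of all genes removed, 7 of the 28 genes were lower, beside 24.8% of all genes, and 3 higher (Arhgef2, Ccna2 and Cenpa), beside 1475 of 7369 genes. Incenp, at 54.5% GC, had a ratio of 0.197 with the trend removed, beside 0.198 as measured. Across the 44 genes GC content followed TPM with a rho of 0.65 in replicate 1 and 0.66 in replicate 2. The part of GC content, depth or other cells in these ratios was not tested.

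**Figure D5:**
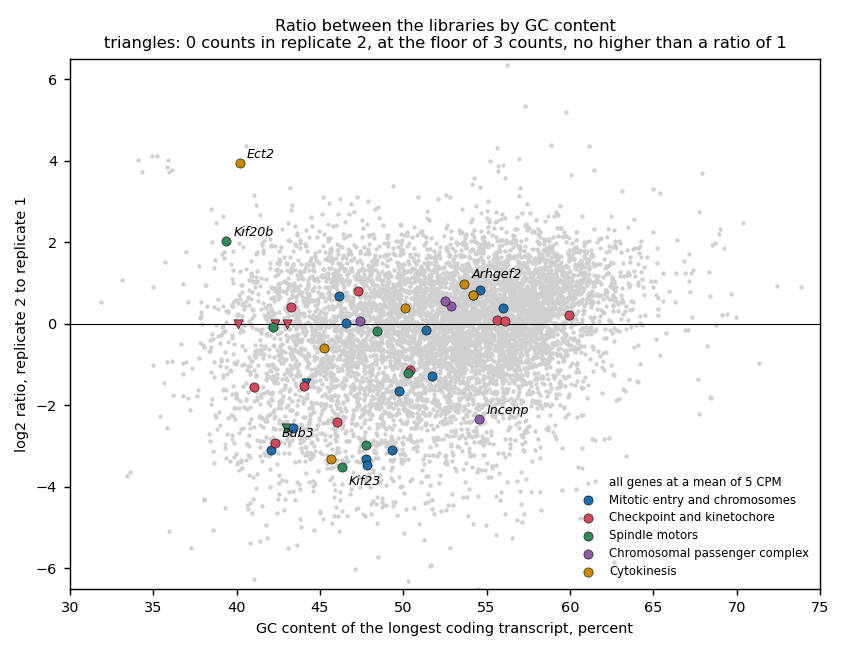
Log2 ratio of replicate 2 to replicate 1 against GC content of the longest coding transcript for all genes at a mean of 5 CPM (grey) and the 44 genes coloured by role; triangles have 0 counts in replicate 2. Most points of the set under 49.6% GC lie below 0, and Incenp lies low at 54.5% GC.

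Genes of late mitosis are known targets of the MuvB complexes, which bind the cell cycle genes homology region (CHR), and of NF-Y, which binds CCAAT boxes. RefSeq promoter windows on GRCm38.p6, from 250 bases before to 50 after a gene's start, were found for 36 of the 44 genes and not for Kif20a, Cdc25c, Tpx2, Wee1, Ccna2, Aurkb, Foxm1 and Incenp. The CHR was searched as TTTGAA or TTCGAA, the CCAAT box as CCAAT, and an E2F motif as TTTGGCGC, TTTGCCGC, TTTCGCGC or TTTCCCGC, all on both strands. A CHR was found in 25 of the 36 genes, or 69.4%, beside 21.7% of 27025 genes with a window. A CCAAT box was found in 26, or 72.2%, beside 41.1%, and both in 21, or 58.3%, beside 8.61%. The E2F motif was found in 2 (Cdc25a and Cdk1), or 5.56%, beside 2.61%. A match of letters is a description and not a site.

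The windows of the 5 highest genes with a match are shown so that the contrast in these elements can be read beside the levels. Capitals mark the CHR and the CCAAT box, the latter as ATTGG where it lies on the opposite strand; each window is given 5′ to 3′ along its gene. They lie at chr3:88629223-88629522 (plus strand, Arhgef2, 1 of its 4 windows), chr5:30666636-30666935 (plus, Cenpa), chr4:118437294-118437593 (minus, Cdc20), chr4:124936868-124937167 (minus, Cdca8) and chr7:122159185-122159484 (plus, Plk1).
Arhgef2: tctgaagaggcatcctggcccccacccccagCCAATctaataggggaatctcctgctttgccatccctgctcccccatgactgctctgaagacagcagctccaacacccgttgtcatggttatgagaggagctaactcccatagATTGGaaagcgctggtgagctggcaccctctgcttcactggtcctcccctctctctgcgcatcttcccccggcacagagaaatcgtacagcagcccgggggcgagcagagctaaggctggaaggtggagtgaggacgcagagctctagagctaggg
Cenpa: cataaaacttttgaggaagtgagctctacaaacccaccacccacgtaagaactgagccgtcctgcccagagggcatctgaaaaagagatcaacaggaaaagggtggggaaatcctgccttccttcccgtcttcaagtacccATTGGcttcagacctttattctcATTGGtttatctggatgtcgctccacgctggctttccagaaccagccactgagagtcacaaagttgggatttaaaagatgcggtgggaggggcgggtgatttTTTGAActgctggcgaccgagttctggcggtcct
Cdc20: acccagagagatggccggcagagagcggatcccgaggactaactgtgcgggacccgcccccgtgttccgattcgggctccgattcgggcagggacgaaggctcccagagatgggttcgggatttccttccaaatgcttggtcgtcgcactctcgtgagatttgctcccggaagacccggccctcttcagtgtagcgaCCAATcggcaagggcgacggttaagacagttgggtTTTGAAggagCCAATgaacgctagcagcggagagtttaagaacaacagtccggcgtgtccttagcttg
Cdca8: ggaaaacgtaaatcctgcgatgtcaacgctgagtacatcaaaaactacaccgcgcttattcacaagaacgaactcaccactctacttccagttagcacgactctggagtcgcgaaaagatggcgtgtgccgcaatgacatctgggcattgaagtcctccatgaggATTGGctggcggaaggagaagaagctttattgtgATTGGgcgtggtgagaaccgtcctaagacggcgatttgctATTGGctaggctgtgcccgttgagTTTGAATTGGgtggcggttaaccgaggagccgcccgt
Plk1: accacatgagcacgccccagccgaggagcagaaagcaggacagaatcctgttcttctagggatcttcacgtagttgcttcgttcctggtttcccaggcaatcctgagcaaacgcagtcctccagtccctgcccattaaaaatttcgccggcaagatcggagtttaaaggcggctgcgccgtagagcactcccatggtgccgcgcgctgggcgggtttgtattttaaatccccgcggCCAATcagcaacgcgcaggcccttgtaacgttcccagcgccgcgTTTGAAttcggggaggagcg

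The Arhgef2 window holds 2 CCAAT boxes and no CHR, and none of the gene's other windows holds a CHR. It lies inside the gene, and was picked from the gene's windows as having the most kinds of motif (first by position on a tie). Its CCAAT boxes thus rest partly on that choice, and those of the other windows are not given. The other 4 windows each hold a CHR and at least 1 CCAAT box. The CHR begins 18 bases before the start in Cdc20, and at bases 17, 14 and 31 after it in Cenpa, Cdca8 and Plk1. In Cdca8 the CHR and the last of 4 CCAAT matches share a base. The genes without a CHR were Arhgef2, Birc5, Ccnb1, Cdc25a, Cenpe, Cit, Fzr1, Mad2l1, Nuf2, Plk4 and Pttg1. Mean levels of the 25 genes with a CHR ran from 0.18 to 199 TPM with a median of 3.88, and those of the 11 without from 0.665 to 383 TPM with a median of 2.995, so the groups overlapped over nearly their whole range.

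Other genes of the same pathways showed the same unevenness. Of 16 anaphase-promoting complex genes 14 were detected, led by its ubiquitin-conjugating enzyme Ube2s (360 and 216 TPM), its RING subunit Anapc11 (303 and 254 TPM) and Ube2c, the enzyme that starts the chains (117 and 44.4 TPM). Of 20 further kinetochore genes 8 were detected, led by Pmf1 (69.4 and 119 TPM), Zwint (60.8 and 24.7 TPM) and Mad1l1 (9.90 and 23.9 TPM), and Cenpk was at 0 in both libraries. Of 20 further spindle genes 14 were detected, led by gamma-tubulin, Tubg1 (60.8 and 83.0 TPM), Numa1 (54.2 and 59.9 TPM) and Cdk5rap2 (56.6 and 3.60 TPM). Ube2s and Anapc11 thus stood above Cdc20 and Fzr1, the activators of the same complex, in both libraries.

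Condensin and cohesin genes were detected for 12 of 15, led by the condensin subunits Ncapd2 (88.8 and 145 TPM), Ncaph2 (43.0 and 22.4 TPM) and Smc4 (26.9 and 33.8 TPM). Of 21 regulators of mitotic transcription and Cdk1, 17 were detected, led by the Cdk1 subunit Cks2 (113 and 18.9 TPM), the MuvB subunit Lin37 (60.0 and 50.4 TPM) and Pkmyt1, the membrane-bound inhibitory kinase of Cdk1 (39.0 and 53.5 TPM). Pkmyt1 thus stood above Wee1, the other inhibitory kinase, in both libraries. Of 19 furrow and abscission genes 17 were detected, led by Myh9, the heavy chain of non-muscle myosin IIA (1580 and 1479 TPM), the septin Sept9 (591 and 342 TPM) and Pdcd6ip (ALIX), an abscission factor (321 and 541 TPM). Myh10, the heavy chain of non-muscle myosin IIB, whose silencing is known in endomitosis, stood at 0.64 and 1.98 TPM (156 and 9 counts) and was named after its value was seen. At a mean of at least 5 CPM, where 27.0% of all genes were lower and 19.4% higher in replicate 2 by more than 2-fold, 6 of 16 furrow genes were lower and 2 higher. The same counts were 6 of 13 lower and 0 higher for the anaphase-promoting complex, 3 of 10 and 2 for the spindle, 1 of 6 and 0 for the kinetochore, 3 of 7 and 0 for condensin and cohesin, and 5 of 15 and 1 for the regulators.

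Some of these genes share exons with neighbours, and whether the counting used strand is not given in the sources used here. Exons overlap a gene on the opposite strand for 10 of the 44 and on the same strand for 2. Cdc20 shares 53 bases with Elovl1, a gene with 6483 and 558 counts, and Prc1 shares 911 bases with Rccd1, with 403 and 13 counts. Kif20a shares 1271 bases with Cdc23 (565 and 13 counts) and Ccna2 510 bases with Exosc9 (123 and 2 counts). In replicate 1 the neighbours of Prc1 and Kif20a had more counts than these genes, and in replicate 2 those of Prc1 and Cdc20 did, so these values are uncertain to that extent.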

How the data were processed

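The 44 genes, the gene lists and their grouping were chosen with earlier results of these data known. Polyadenylated RNA of 2 libraries of 1 group was measured. Per the deposited file lists the assembly was mm10 and the annotation GENCODE M4; which aligner and quantifier were run, and whether strand was used, is not given in the sources used here. Expected counts are, per the file headers, the authors' estimates of fragments for each gene or transcript, and they were rounded to whole numbers. TPM, per the file headers, is the authors' length- and depth-scaled level, deposited as a maximum likelihood and a posterior mean estimate. FPKM, per the file headers, is the authors' level scaled to length and to the number of fragments. The percent of a gene's TPM on each transcript, deposited by the authors, was recomputed from transcript TPM.

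Depth was 42099216 and 2275922 expected counts. Symbols, transcript types and GC content came from GENCODE M21 by identifier, and 42462 of 43346 genes had a symbol; other rows were left out. edgeR 4.0.16 in R 4.3.3 gave TMM factors (1.16 and 0.859), and DESeq2 1.42.0 alternative size factors. Ratios have exact 95% Clopper-Pearson intervals conditional on the summed count. Partner ratios, whose pairs need not form a complex, use the same intervals on counts, scaled to TPM. Intervals and the floor of 3 counts cover counting error only. The ratio step was tested on simulated data. No quasi-likelihood test was run, since 1 library a side leaves no residual degrees of freedom. Calls are past 2-fold at a mean of at least 5 CPM, and no filter where all 44 genes are counted. Full values are given for the 3 highest and the lowest gene of each role, genes whose whole interval lies past 2-fold, and partner pairs; of other lists, for the 3 highest and those at 0 in both libraries. Other values were chosen after they were seen. Promoters were those of the 5 highest genes with a match, none from chromosome 18. For a gene with several windows, the one with the most kinds of motif was shown. Alternatives were the scaling, the filters, the estimate (posterior mean or FPKM), a GC correction, leaving out a library and, chosen after seeing the data, coding transcripts only.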

Additional observations from a re-analysis of the deposited data

How the results depend on the processing

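Leaving out a library gave 31 to 39 detected genes, and a minimum of 5 TPM gave 22. Medians by role ran over the libraries from 2.84 to 9.83 TPM (entry), 1.99 to 4.11 (checkpoint), 1.19 to 2.23 (motors), 58.8 to 63.9 (passenger complex) and 4.43 to 6.45 (cytokinesis). Restricting to genes at 1 TPM gave 8.34 for checkpoint genes and 2.94 for motors. The passenger complex had 50.7 by posterior means, 50.8 by FPKM and 27.1 by coding transcripts alone, and cytokinesis genes had 7.83 by posterior means. Genes lower in replicate 2 numbered 16 of 35 at a mean count of 100 (33.8% of all genes). They numbered 3 of 17 at 20 CPM (19.1%) and 19 of 44 with no filter (20.7%). Genes higher numbered 1 of 28 with DESeq2 size factors (Arhgef2), beside 20.1% of all genes, and 2 of 44 with no filter, beside 22.3%. With the GC trend removed 3 of 28 were higher, beside 1475 of 7369 genes. The median log2 ratio was 0.10 with DESeq2 factors, 0.26 with the GC trend removed and 0.38 at 20 CPM. It reversed to -0.37 with total counts, which shift the median of all genes by -0.44, to -0.14 at a mean count of 100, which shifts it by -0.24, and to -0.11 with no filter. The highest transcript was shared for 12 of 13 genes with 20 counts in each library and for 14 of 25 by posterior means. Ratios of partners by library ran from 0 to 0.237 (Ccnb1 to Ccnb2), 0.0206 to 0.645 (Kif23 to Racgap1), 0.773 to 7.98 (Aurkb to Incenp), 1.33 to 7.20 (Birc5 to Incenp), 1.42 to 13.8 (Cdca8 to Incenp), 1.19 to 1.44 (Cdc20 to Fzr1), 89.8 to 3265 (Arhgef2 to Ect2), 8.91 to 12.4 (Bub1b to Bub1), 0.805 to 5.52 (Pttg1 to Espl1) and 2.35 to 8.72 (Cdc25b to Cdc25a), and Ndc80 to Nuf2 gave 0.595 in replicate 1 alone. Posterior means gave 64.8 for Arhgef2 to Ect2, 4.86 for Pttg1 to Espl1, 0.418 for Ccnb1 to Ccnb2, 0.476 for Ndc80 to Nuf2 and 2.24 for Bub1b to Bub1; coding transcripts gave 0.504 for Aurkb to Incenp, 0.845 for Cdca8 to Incenp, 0.767 for Ndc80 to Nuf2 and 1.82 for Cdc20 to Fzr1. The cause was not tested beyond what each filter leaves out. Of all settings 64 kept their value within the limits set, 35 moved and 3 reversed. For medians by role and ratios of partners the limit was the SD between the libraries where there was one. A wide spread therefore lets a large change count as kept. Arhgef2 to Ect2 counted as kept at 64.8 by posterior means against 143 by mean TPM, with an SD of 2245. The tally is thus no measure of robustness. No paired analysis was possible because the labels give 1 group. Depth limits replicate 2, where 17 of the 44 genes had at least 20 counts and 9 at least 100.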
